A study of Mus musculus with 8 samples.

Results

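The genes of MHC class I antigen presentation were examined in C2C12 myoblasts after silencing of the long non-coding RNA Pvt1. The 10 genes were chosen by symbol: B2m, H2-K1, H2-D1, Tap1, Tap2, Tapbp, Psmb8, Psmb9, Psmb10 and Nlrc5. On the array they had 17 probes out of 56605 that were not controls, and all 17 were followed. C2C12 is a mouse muscle cell line, used here at passage 10 and while proliferating. Each of the 8 cultures received Lipofectamine 2000 with LNA GapmeRs, short antisense oligonucleotides that lead to cleavage of a matching RNA. In 4 cultures the GapmeRs were directed at Pvt1 (silenced), and in the other 4 they were negative controls, a group the labels also call Mock. The labels describe the cultures as biological replicates of 1 cell line, so the p-values measure the spread between cultures of that line.

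Class I molecules show fragments of the cell's own proteins to CD8+ T cells. Each is built of a heavy chain (H2-K1 and H2-D1 are the classical ones) and of B2m, the light chain. Peptides are cut by the proteasome, whose interferon-induced catalytic subunits are Psmb8, Psmb9 and Psmb10, are pumped into the endoplasmic reticulum by Tap1 with Tap2, and are loaded with the help of tapasin, the product of Tapbp. Nlrc5 is a transactivator of these genes. Myoblasts in culture are known to carry class I molecules and to raise them when exposed to interferon-γ. Of the 10 genes, 7 lie on chromosome 17, where the mouse MHC is, 2 on chromosome 8 (Psmb10 and Nlrc5) and 1 on chromosome 2 (B2m).

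The GapmeRs that defined the silenced group are shown first. The negative control GapmeRs have a sequence of their own, which is not given here.
Pvt1_1: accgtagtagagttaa
Pvt1_3: agtcaacgcttcacat
The stretch that pairs with each oligonucleotide was searched for in the 60-base probes. The longest run shared with a probe of the class I genes was 5 bases for Pvt1_1 and 7 bases for Pvt1_3, out of 16. No probe of the whole array held a full match, and the probes of Pvt1 itself are among these. The full RNAs were not searched, so this does not show whether the oligonucleotides can pair with class I RNAs.

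The probes on which the results turn are shown next. The 5′ probe of H2-K1 (build mm9, minus strand, chr17:34133984-34134043) is given in full, with capitals for the bases that differ from, or lie past the end of, the most similar probe of another gene, that of Gm11127. Of its 60 bases, 44 matched. The opening 30 bases are given for the 3′ probe of H2-K1 (minus strand, chr17:34133055-34133114), for the probe of Psmb10 (minus strand, chr8:108459677-108459736) and for the 3′ probe of Tap1 (plus strand, chr17:34334022-34334081).
H2-K1, 5′ probe: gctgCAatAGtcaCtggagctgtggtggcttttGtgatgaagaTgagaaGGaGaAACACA
H2-K1, 3′ probe: tgaatgtaaccttgattgttatcatcttga
Psmb10: ggaacttcttgaggaaactgtgcaggccat
Tap1, 3′ probe: tatgtggcgttgtgatagaatgagaagaaa
No probe of another gene matched a class I probe at 48 or more bases, and apart from the 5′ probe of H2-K1 the best match was between 30 and 33 bases. The heavy chain genes differ between mouse strains and resemble each other. C2C12 was derived from C3H mice, and how well these probes fit the alleles of that strain was not tested.

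Pvt1 itself was checked before the class I genes. The log2 normalized signal of its brightest probe was 9.65, 9.79, 10.31 and 9.70 on control arrays 1 to 4, and 7.09, 6.69, 7.85 and 6.39 on silenced arrays 1 to 4. All silenced values lay below all control values, and the change was -2.86 (SE 0.32, limma adjusted p 0.000682), which left 13.8% of the control signal. The upper row of the slide held 3 control and 1 silenced array and the lower row 1 control and 3 silenced arrays, so a change within a row has 1 array on one side and no test. For Pvt1 it was -2.83 and -2.73.

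The arrays carried 3 features that touch the values below. Silenced replicate 4 was dimmer than the others: 51.6% of its spots were positive and significant, against 58.8% to 62.5% on the other 7 arrays, and after normalization its median over the tested probes lay 0.65 log2 below the mean of all arrays. Of 20 genes typical of liver, 1 or 2 were well above background on control arrays but 8 to 14 on silenced arrays, and their summed signal was 1125 to 1954 in controls and 5834 to 7560 in silenced cells. Alb, Mup1, Ahsg and Serpina1a, named after their values were seen, were well above background on 4 of 4 silenced and 0 of 4 control arrays. Of 13 leukocyte and class II markers, 4 to 6 were well above background on control and 5 to 7 on silenced arrays, and their summed signal was 6083 to 7021 and 7226 to 12076. Of that list 8 genes were tested, 2 were higher (Cd68, by 1.84, and Coro1a, at least 1.41-fold) and 1 lower (Itgam, -1.08), while Ptprc changed by 1.26 and did not pass (limma adjusted p 0.0588). Of the markers that define cell types, Ptprc (leukocytes), Cd3e (T cells), Cd68 and Itgam (myeloid cells) were well above background on all 8 arrays. H2-Aa, H2-Eb1 and Lyz2 were well above background on 0 of 8 arrays, Cd74 on 1 control array and H2-Ab1 on 2 control arrays, and none of these on a silenced array. Cd52 and Laptm5 were well above background on 1 silenced array each and on 0 control arrays. Of 8 tested myoblast markers, none was higher and Myod1 (-1.95), Des (-1.35) and Cdh15 (-0.86) were lower. Liver and leukocytes also express class I genes, and the part of these features in the results was not tested. In cultures measured in bulk, a change in the number of cells of a kind cannot be told from a change of RNA per cell.

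Across the array, 28649 probes had at least 3 of 4 values in each group and were tested, and 6642 (23.2%) passed a limma adjusted p of 0.05, 1373 (4.79%) as higher and 5269 (18.4%) as lower in silenced cells. This split moved with the scaling, to 7075 higher and 4365 lower with a shift to the 75th percentile, 5416 and 5258 with cyclic loess, 5195 and 5025 with normexp, 4509 and 4461 in the authors' series table, 4990 and 4787 without masking of dim spots, and 3572 and 5287 without silenced replicate 4. The median change of all tested probes was -0.19, and 0.16, 0.02, 0.00, 0.01, 0.01 and -0.03 in the same order. Of the 17 class I probes, 12 were tested, standing for 8 genes. The call was passed by 1 gene, Psmb10, which rose, and by 2 probes, that of Psmb10 and the 5′ probe of H2-K1, which fell. The share called (2 of 12) was thus not above the background share with this processing. Over the alternatives, 1 to 7 class I probes and 3106 to 11440 of all probes were called, and their shares were not compared. The median change of the 8 genes, each at its brightest probe and mostly at a 3′ probe, was 0.37. Over all 12 tested class I probes it was 0.11, against -0.19 for all tested probes of the array. Position on the gene moved with these medians: in 1386 genes with tested probes 300 to 2000 bases apart, the median change was 0.05 for the 3′ and -0.64 for the 5′ probes. The other 5 probes, among them all probes of Tap1 and Psmb8, lacked values and are described by array.

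**Figure D1:**
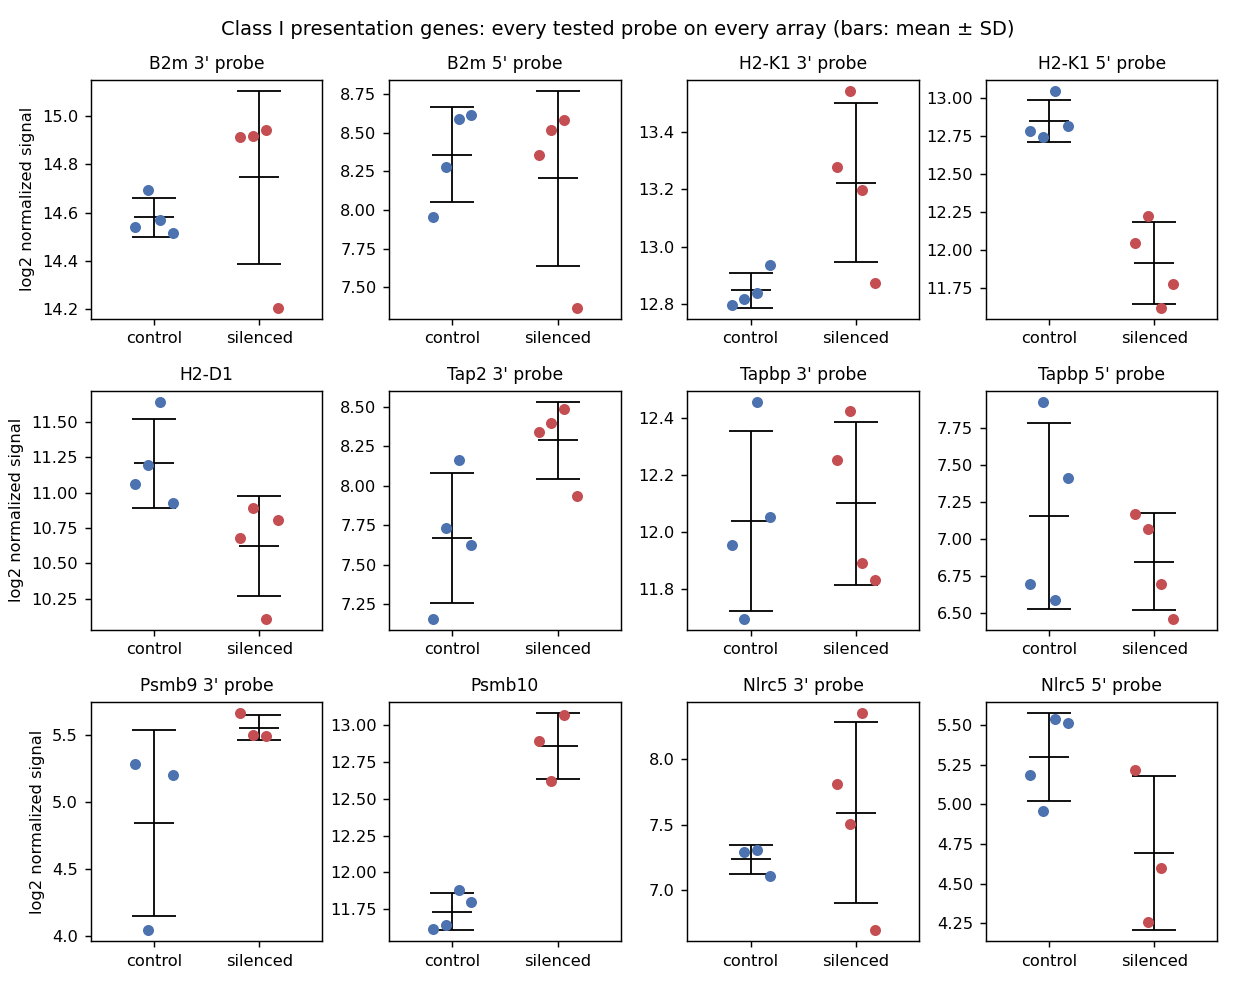
Log2 normalized signal (vertical axis, own scale in each panel) of the 12 tested probes of class I presentation genes on the 4 control (blue) and 4 silenced (red) arrays. Points are arrays in the order of replicates 1 to 4, bars give mean ± SD, and missing points are spots that were masked or flagged. The points shown for H2-D1, Psmb9, Psmb10 and the 5′ probe of H2-K1 separate, but Psmb9 has 3 points a group and lacks silenced replicate 4, which was masked. Silenced replicate 4 is the lowest silenced point for both probes of B2m and of Tapbp and for the 3′ probes of H2-K1, Tap2 and Nlrc5.

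Psmb10, the catalytic subunit that replaces Psmb7 in the immunoproteasome, was the single class I gene called at its brightest tested probe. Its log2 signal was 11.61, 11.64, 11.88 and 11.80 on control arrays and 12.89, 12.62 and 13.07 on silenced arrays 1 to 3. The spot of silenced replicate 4 was flagged as an outlier and left out. The lowest silenced value lay well above the highest control value. The change was 1.13 (SE 0.21, limma adjusted p 0.00724), or 2.18-fold. Before normalization the processed signal lay between 2517 and 3895 in controls and between 7099 and 9330 on silenced arrays 1 to 3, and the spot that was left out read 7378. The change was 1.18 within the upper row of the slide and, with 2 silenced values, 1.05 within the lower row. It passed the threshold in all 19 alternatives run on probes, with changes between 1.01 and 1.47. The alternatives that use other probes of a gene are no further check here, as Psmb10 has 1 probe.

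Psmb9, another immunoproteasome subunit, was near the limit of detection. Its 3′ probe (chromosome 17, 34319174 to 34319233) was not well above background on any array. Its log2 signal was 5.29, 4.04 and 5.20 on control arrays 1, 2 and 4, and 5.67, 5.51 and 5.50 on silenced arrays 1 to 3. These values did not overlap between the groups, but the difference did not pass the test (limma adjusted p 0.198). Without masking, silenced array 4 read 3.88, below control arrays 1 (5.35), 2 (4.00) and 4 (4.89), so the separation rests on the masking of that spot. Its 5′ probe (34322762 to 34322821) was not positive and significant on any array. Psmb8, the remaining subunit, had 1 probe (34337771 to 34337830), with a value on control array 2 alone (4.18) and none well above background. Neither Psmb8 nor Psmb9 was therefore well above background in either group with these probes, and no fold is given.

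Tap1 and Tap2 form the peptide transporter. For Tap1, the 3′ probe was masked on 2 control arrays and therefore not tested. Its processed signal was 15.8, 11.8, 31.5 and 19.3 on control arrays 1 to 4, and 106, 123, 113 and 113 on silenced arrays 1 to 4. Every silenced value was above every control value. The probe was well above background on 3 silenced arrays and on 0 control arrays, so that the signal was at least 1.65-fold higher in silenced cells, set against the lowest signal among probes well above background on each control array. The fits that could include it, without masking and with normexp, passed it as higher (limma adjusted p 0.0014 and 0.000518), but on control arrays they take readings near the floor at face value, so the size of their change depends on how the floor is treated and is not given. The other Tap1 probe, 3168 bases upstream on the genome (34330854 to 34330913), was not positive and significant on any array, with a processed signal of 11.96 to 16.4 in controls and 12.5 to 23.02 in silenced cells. So 1 of the Tap1 probes separated the groups.

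For Tap2, the 3′ probe (34353116 to 34353175) had a log2 signal of 7.16, 7.73, 8.16 and 7.62 on control arrays and 8.34, 8.39, 8.48 and 7.93 on silenced arrays. Silenced replicate 4 fell below control replicate 3, and the other 3 silenced arrays lay above all controls. The change was 0.62 (SE 0.25, limma adjusted p 0.105) and did not pass. Without silenced replicate 4 it was 0.74 and passed (adjusted p 0.0491), and without control replicate 3 it was 0.78 and passed (adjusted p 0.0402). It passed as well under all 5 other scalings or sources of values, with 0.65 to 0.98. Within the slide rows it was 0.66 and 0.65. The second Tap2 probe (34341478 to 34341537) was not positive and significant on any array.

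B2m, the light chain of every class I molecule, did not pass the test. The log2 signal of its 3′ probe (chromosome 2, 121978401 to 121978460) was 14.54, 14.70, 14.57 and 14.52 on control arrays, and 14.92, 14.92, 14.94 and 14.21 on silenced arrays. Silenced replicates 1 to 3 lay above all controls and silenced replicate 4 below them. The change was 0.17 (SE 0.22, limma adjusted p 0.636). Without masking of dim spots it was 0.38 and passed (adjusted p 0.00903), and with a shift to the 75th percentile it was 0.76 (adjusted p 0.00505), and it passed in 4 alternatives in all. The other B2m probe (121974599 to 121974658), which lies 3802 bases upstream on the genome and was designed on another transcript, ranged from 7.96 to 8.62 in controls and from 7.37 to 8.58 in silenced cells, with a change of -0.15 (SE 0.30, limma adjusted p 0.76).

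The heavy chain H2-K1 gave opposite signs at its probes. The 5′ probe read 12.79, 12.74, 13.05 and 12.82 on control arrays and 12.04, 12.22, 11.62 and 11.77 on silenced arrays, without overlap. It fell by 0.94 on the log2 scale (SE 0.20, limma adjusted p 0.0106). The call was lost with the slide row as a block (-0.88, adjusted p 0.0668) and with the shift to the 75th percentile (-0.50, adjusted p 0.0716). The probe of Gm11127, which resembles it in sequence, is no member of the set and was looked at after the match was seen. It changed by -0.79 (SE 0.23, limma adjusted p 0.0352).

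The 3′ probe of H2-K1 read 12.80, 12.82, 12.84 and 12.93 on control arrays and 13.28, 13.54, 13.20 and 12.87 on silenced arrays. Silenced arrays 1 to 3 lay above all controls. The change was 0.38 (SE 0.20, limma adjusted p 0.206) and did not pass, but it passed without silenced replicate 4 (0.49, adjusted p 0.0496) and under all 5 other scalings or sources of values (0.52 to 0.88).

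The distance between the H2-K1 probes was then followed on each array as the log2 signal of the 5′ probe minus that of the 3′ probe, 929 bases away. It was -0.01, -0.07, 0.21 and -0.12 in controls and -1.24, -1.32, -1.58 and -1.10 in silenced cells. The shift was -1.31 (exact two-sided permutation p 0.0286, the smallest that 4 against 4 arrays can give, and 0.114 adjusted over the 4 genes so compared). For B2m it was -0.32 (exact permutation p 0.257) and for Tapbp -0.37 (exact permutation p 0.514). Nlrc5 had both values on 3 arrays a group, at -2.33, -1.77 and -1.59 in controls and -2.60, -3.25 and -3.75 in silenced cells. These did not overlap (exact permutation p 0.1, the smallest that 3 against 3 can give, and 0.2 adjusted), but the 5′ probe was well above background on 0 arrays. A lower reading at 5′ probes was found along the array as a whole. In 1386 genes with tested probes 300 to 2000 bases apart, a range set after the data were seen, the 5′ probe changed more to the lower side in 79.7%, with a median shift of -0.66. The array medians of that difference were -1.32 to -0.96 in controls and -2.10 to -1.66 in silenced cells. The shift of H2-K1 was reached or passed by 353 of these genes (25.5%). The part of this position effect in the values of single probes was not tested.

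**Figure D2:**
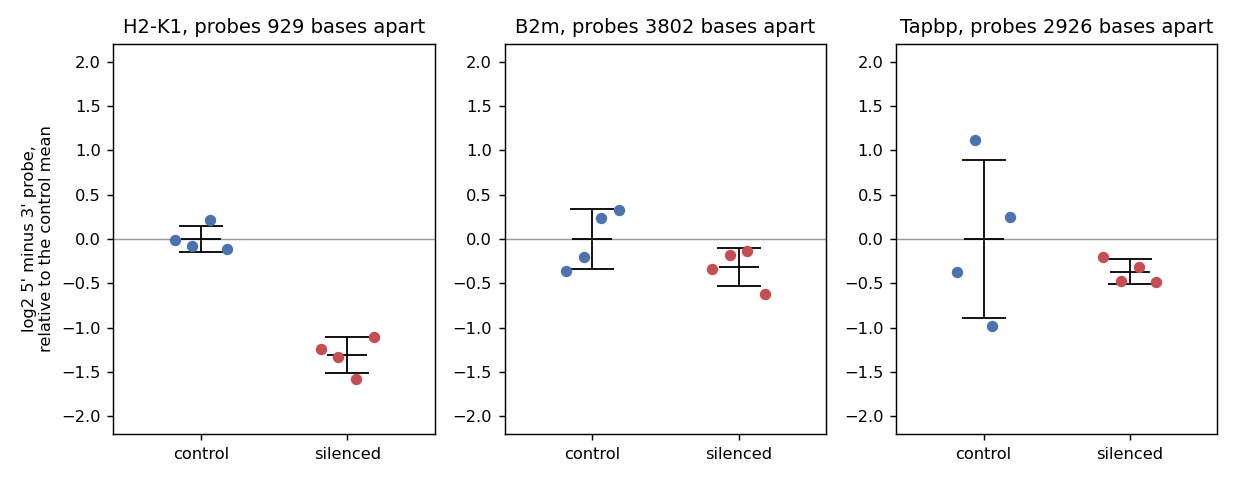
Log2 signal of the 5′ probe minus that of the 3′ probe of the same gene on each array, with the control mean set to 0 (vertical axis), for H2-K1, B2m and Tapbp. Points are the 4 control (blue) and 4 silenced (red) arrays and bars give mean ± SD. H2-K1 shifts by -1.31 without overlap, while the groups overlap for B2m and Tapbp.

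H2-D1, the other classical heavy chain, had 1 probe under its symbol (chromosome 17, 35403886 to 35403945). Its log2 signal was 11.06, 11.20, 11.64 and 10.92 on control arrays and 10.68, 10.89, 10.11 and 10.80 on silenced arrays. The highest silenced value was just below the lowest control value. The change of -0.59 (SE 0.25, 95% interval -1.14 to -0.03) did not pass (limma adjusted p 0.119). It was negative in all 19 alternatives run on probes, from -0.69 to -0.30, and passed in 1 of them, the methods' t-test without adjustment. Of the 12 tested class I probes, 4 had groups without overlap among the values kept (H2-D1, Psmb9, Psmb10 and the 5′ probe of H2-K1), beside 28.2% of all tested probes, counted in the same way.

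Tapbp, which links the transporter to the empty class I molecule, did not separate the groups. Its 3′ probe (34066022 to 34066081) ranged from 11.70 to 12.46 in controls and from 11.83 to 12.42 in silenced cells, with a change of 0.06 (SE 0.24, 95% interval -0.47 to 0.59, limma adjusted p 0.885). Its 5′ probe (34063096 to 34063155) ranged from 6.59 to 7.93 and from 6.46 to 7.17, with a change of -0.31 (SE 0.32, limma adjusted p 0.539). Neither passed in any alternative.

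Nlrc5, the transactivator, was followed by its 3′ probe (chromosome 8, 97051105 to 97051164), which holds a polyadenylation signal, as did 13.4% of all probes. Its log2 signal was 7.29, 7.31 and 7.10 on control arrays 2 to 4 and 7.81, 7.51, 8.35 and 6.70 on silenced arrays. Silenced replicate 4 was below the controls and the other silenced arrays above them. The change was 0.36 (SE 0.37, limma adjusted p 0.527). Control array 1 read 46229 in processed signal, against 133 to 138 on the other control arrays, and was left out as a flagged outlier. The authors' series table keeps that spot, and there the change was -1.37 (adjusted p 0.759). With the spot left out, the change passed in 4 alternatives, at 0.48 to 0.82. The 5′ probe, made of bases that span 147 on the genome (97030478 to 97030624), was not well above background on any array and did not pass (limma adjusted p 0.165).

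**Figure D3:**
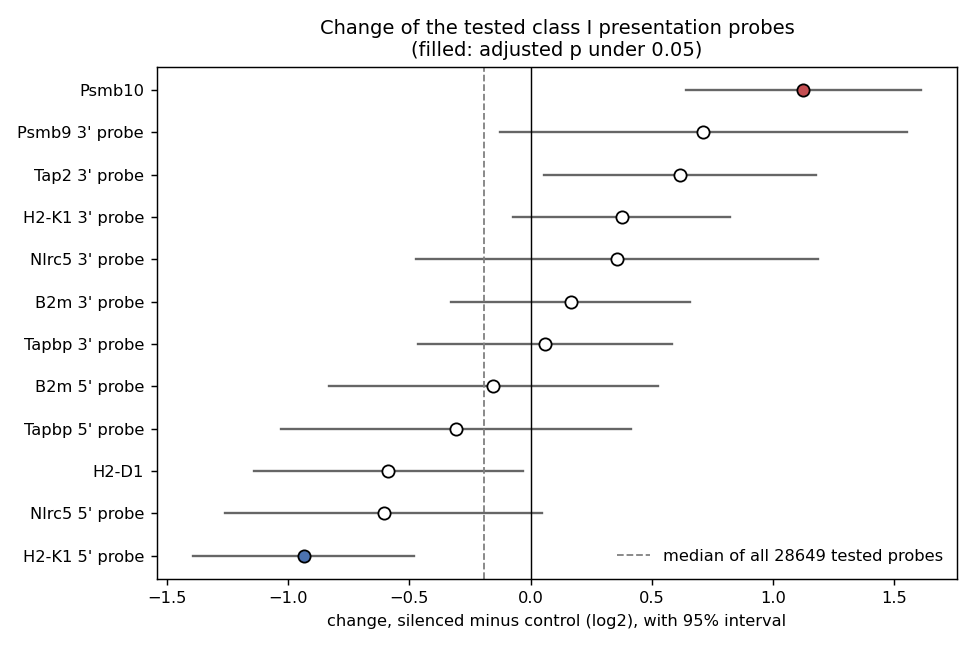
Change of the 12 tested class I probes (silenced minus control, log2, horizontal axis) with 95% intervals, ordered by size. Filled points passed an adjusted p of 0.05, and the dashed line is the median of all tested probes (-0.19). Only Psmb10 (1.13) and the 5′ probe of H2-K1 (-0.94) passed. Psmb9 and the 5′ probe of Nlrc5 were well above background on 0 arrays, and the size of their change cannot be read as a fold.

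**Figure D4:**
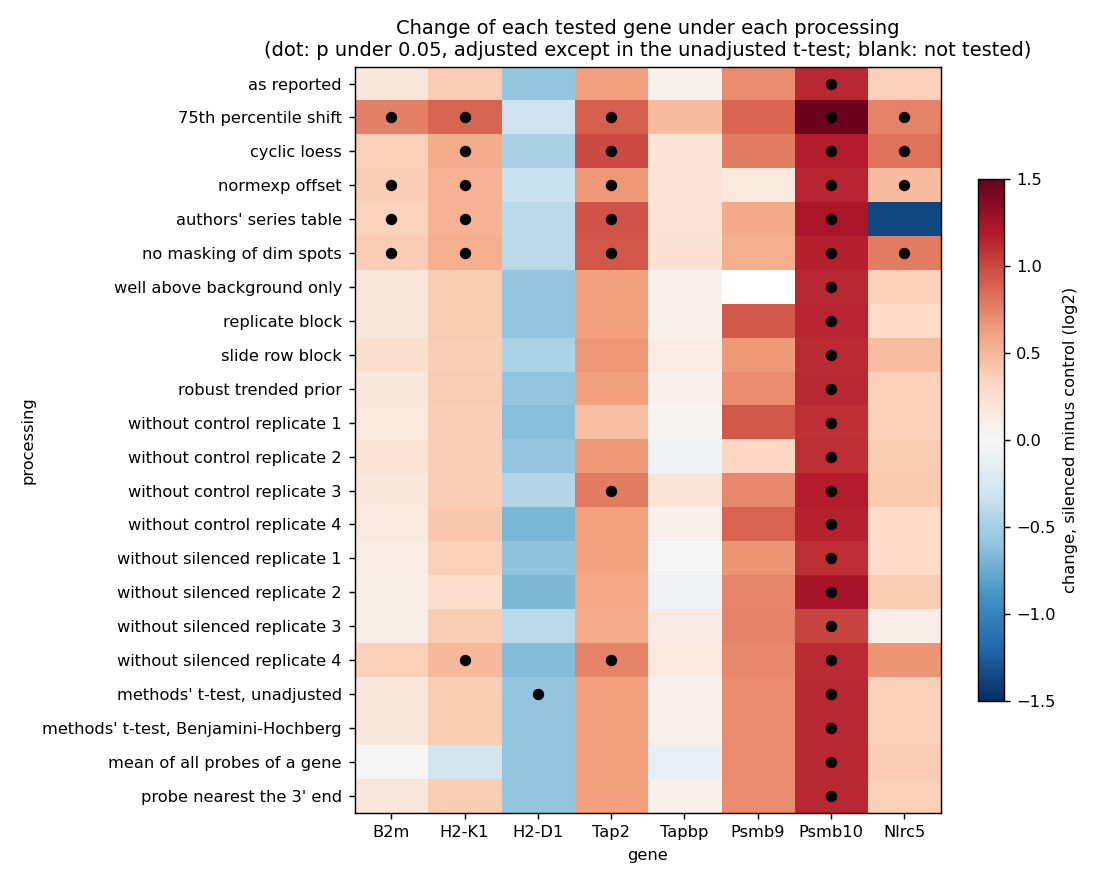
Change of each of the 8 tested genes (columns, brightest probe except in the lower 2 rows) under the reported processing and 21 alternatives (rows). Colour is the log2 change, and a dot marks a call. Psmb10 carries a dot in every row, while H2-K1 and Tap2 gain dots in the rows of the other scalings, of normexp, of the authors' series table and of no masking, and in the row without silenced replicate 4, and Tap2 also without control replicate 3. B2m gains them in 4 rows and not with cyclic loess, and Nlrc5 in 4 rows and not in the series table, where it is negative. H2-D1 has 1 dot, in the row of the methods' t-test without adjustment.

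The promoters were read for letters that the members might share, as these genes are known to use common elements. RefSeq promoter sequence (GRCm38.p6, 250 bases before to 50 after the start) was at hand for 8 of the 10 symbols, not for Tap2 and Nlrc5. The letters GGGATTCCC, a core of the NF-κB site of class I heavy chain genes, were found on either strand in H2-K1 and H2-D1 and in 0.353% of all 32851 promoters. GAAANNGAA, the core of the interferon element, was found in B2m and in 8.56% of all promoters, and CCAAT in 6 of the 8 (all but Psmb8 and Psmb10) and in 37.4% of all. TGACG, the core of a cyclic AMP element, was in 5 of the 8 (B2m, H2-K1, H2-D1, Tap1 and Psmb9) and in 20.8% of all. The palindrome TTCNNNGAA was in Psmb8 and in 8.3% of all. The windows of Tap1 and Psmb9, which face away from each other, overlap, and their CCAAT and TGACG matches are the same bases counted for both. The Psmb10 window held none of the letters searched for. The stretches are shown for the heavy chains and the light chain, with capitals for the matches to GGGATTCCC, GAAANNGAA, TGACG and CCAAT.
H2-K1 (minus strand, chr17:34000354-34000462): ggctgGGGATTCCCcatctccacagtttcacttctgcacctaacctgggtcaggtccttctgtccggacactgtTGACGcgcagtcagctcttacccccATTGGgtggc
H2-D1 (plus strand, chr17:35262919-35263027): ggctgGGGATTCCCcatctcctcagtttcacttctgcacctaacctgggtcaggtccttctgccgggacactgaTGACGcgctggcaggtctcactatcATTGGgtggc
B2m (plus strand, chr2:122147543-122147643): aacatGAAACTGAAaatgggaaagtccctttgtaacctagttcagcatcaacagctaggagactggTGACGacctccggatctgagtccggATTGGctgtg
ATTGG is CCAAT read on the other strand. A match describes letters and not binding, and these windows say nothing of binding in C2C12.

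The rest of the pathway was taken by lists, each gene at its brightest tested probe. Several named genes had further tested probes, whose values are not given here. Among them, Thop1 and Stat3 had 3 tested probes each, and Pdia3, Mr1, Psme3 and Pvrl2 had 2 each. Of the class I relatives, 18 of 26 genes were tested, 0 were higher and 6 lower, beside 4.79% and 18.4% of all tested probes, with a median change of -0.61 beside -0.19. The 6 became 1 without control replicate 2, 2 without control replicate 4 and 9 without silenced replicate 2. Mr1, which presents vitamin metabolites to MAIT cells, fell from 8.72 ± 0.37 to 7.52 ± 0.50 (SD, n = 4), a change of -1.20. H2-Q2 fell from 13.51 ± 0.23 to 12.43 ± 0.33 (-1.08) and H2-M2 from 10.35 ± 0.33 to 9.37 ± 0.21 (-0.98). The remaining 3 were H2-Bl, H2-L and H2-Q8, named because they are few. The H2-L probe (-0.91, limma adjusted p 0.0223) is placed shortly upstream of the H2-D1 probe, on the same strand of chromosome 17. Whether it reads H2-D1 RNA was not tested. Heavy chain relatives resemble each other in sequence, so their probes may share targets. With the shift to the 75th percentile the list had 3 higher and 4 lower genes, and with the slide row as a block 1 lower gene.

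Of the genes for peptide loading and trimming, 13 of 15 were tested, 0 were higher and 4 lower, beside the same 4.79% and 18.4%, with a median of -0.40. With the shift to the 75th percentile 4 were higher and 3 lower, and 2 were lower when control replicate 2 or 4 or silenced replicate 1 or 2 was left out. Thop1, a cytosolic peptidase that destroys class I peptides, fell from 12.24 ± 0.26 to 10.47 ± 0.26 (SD, n = 4, change -1.77, limma adjusted p 0.000988). Pdia3, the oxidoreductase of the loading complex, fell from 13.77 ± 0.21 to 12.68 ± 0.17 (-1.09, limma adjusted p 0.00473). Both passed in all 19 alternatives run on probes. Calr, the lectin chaperone of the same complex, fell by 0.74 on the log2 scale and passed in 5 of them. Erap1, the trimming aminopeptidase, fell as well (limma adjusted p 0.0209). It was well above background on 2 control and 0 silenced arrays, which sets a bound of at least 1.03-fold lower in silenced cells.

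Of the proteasome partners, 9 of 11 were tested and 2 were lower, a share near the 18.4% of all tested probes, and the median of -0.21 was near that of all probes. With the shift to the 75th percentile 3 were higher and 1 lower, and 1 was lower when control replicate 1, 2 or 4 or silenced replicate 1, 2 or 3 was left out. Psmb7, the constitutive subunit whose place Psmb10 takes, fell from 14.44 ± 0.17 to 13.33 ± 0.35 (SD, n = 4, change -1.11, limma adjusted p 0.00795) and passed in all 19 alternatives. The probes of the exchanged pair thus moved to opposite sides, with 1 tested probe for each gene. The Psmb7 probe is mapped over a stretch of the genome far longer than the probe itself. Its place along the RNA was not analysed. The part of the lower reading at 5′ probes in this contrast was not tested, nor was a switch between the subunits. Psme3, a proteasome activator of the nucleus, changed by -0.70 and passed in 8 alternatives.

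Of the regulators of class I transcription, 23 of 25 were tested and 3 were higher, beside 4.79% of all tested probes, with a median of -0.24. With the shift to the 75th percentile 8 were higher, while 0 were higher when control replicate 1, 2 or 4 was left out, and 1 when control replicate 3 or silenced replicate 1, 2 or 3 was. Stat2 rose from 10.19 ± 0.36 to 11.20 ± 0.29 (SD, n = 4, change 1.01, limma adjusted p 0.0174), and Ifngr1, a chain of the interferon-γ receptor, and Stat3 rose by 0.69 and 0.68. With the slide row as a block none of these 3 regulators passed, beside 534 higher and 2572 lower probes on the whole array. Irf1, named after its value was seen because it drives many of the 10 genes, changed by 0.54 and did not pass.

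Of the checkpoint and natural killer ligands, 8 of 13 were tested and 2 were higher, beside 4.79% of all tested probes, with a median of 0.23. With the shift to the 75th percentile, and also without silenced replicate 4, 4 were higher, and 0 when control replicate 1, 2 or 4 or silenced replicate 1, 2 or 3 was left out. Raet1e, a ligand of NKG2D, rose from 11.68 ± 0.15 to 12.45 ± 0.25 (SD, n = 4, change 0.77, limma adjusted p 0.0226). Pvrl2, a nectin bound by DNAM-1, rose from 10.13 ± 0.24 to 10.89 ± 0.29 (0.76, limma adjusted p 0.0347). Neither call held with the slide row as a block.

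**Figure D5:**
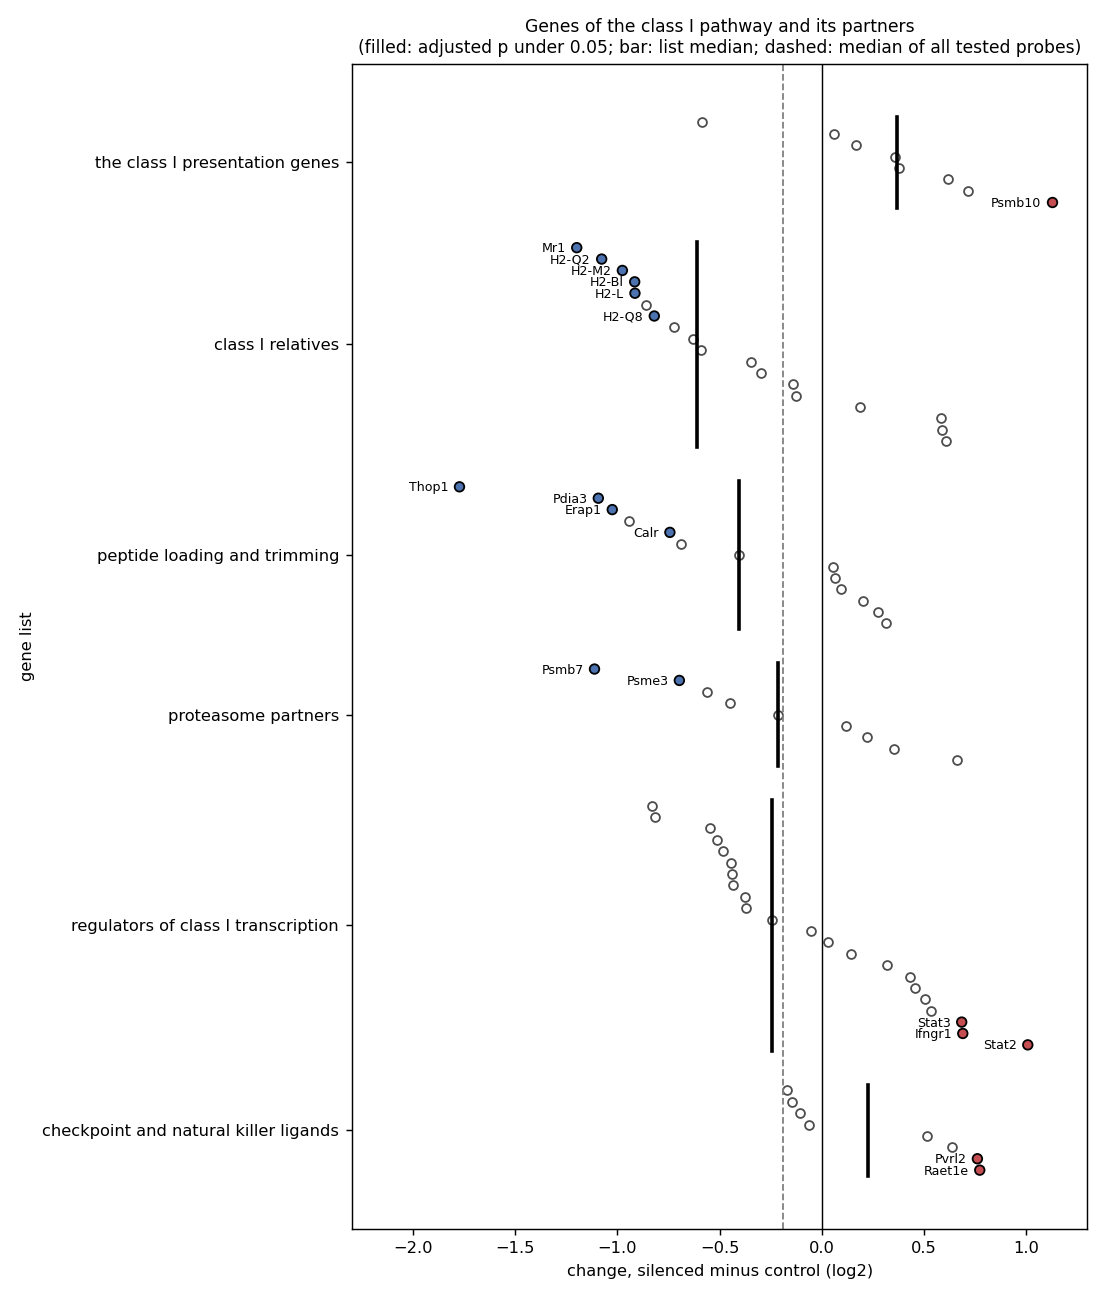
Change (silenced minus control, log2, horizontal axis) of the tested genes of class I presentation and of 5 related lists, 1 point a gene, with 1 regulator left out. Filled points passed an adjusted p of 0.05 and carry a name, black bars are list medians (0.37 for the presentation genes, -0.61 for class I relatives, -0.40 for loading and trimming), and the dashed line is the median of all tested probes (-0.19).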

How the data were processed

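RNA of 4 control and 4 silenced C2C12 cultures was labelled with Cy3 and hybridized to 1-colour Agilent mouse arrays, all on 1 slide and in 1 scan. The deposited scanner files give spot intensity on a linear scale, background-subtracted by Feature Extraction 12.0.0.7 per the file headers, while the submitters' processing notes name 10.7.3.1. A value table of intensity for the whole series, also deposited, has the same median on every array (52.9) and served as an alternative. Flags of 0 or 1 (a score per spot) for signal above background, outliers and saturation came from the deposited files as well.

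Log2 values were computed from the processed intensity the authors deposited. Spots that were not positive and significant were masked, as in the study's methods, control and outlier-flagged spots were left out, arrays were quantile normalized and spots of a probe averaged. Probes with at least 3 values in each group were fitted with limma 3.58.1 (R 4.3.3, lmFit and eBayes, group as the only term), with Benjamini-Hochberg adjustment over all probes at 0.05. The fit was tested on simulated data. A gene was represented by its brightest tested probe. Where a group had no array well above background, a lower bound of the fold was taken against the lowest signal well above background on each of its arrays. Differences between probes of a gene were compared with an exact permutation test. Sequences and mm9 coordinates are those of the files, promoters those of RefSeq, and 15 of 17 probes matched a RefSeq gene by accession, all with the same symbol. The place of probes in exons or UTRs was not analysed here.

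The members, lists, tests and alternatives were chosen with earlier results of these data known. All 10 genes are named with every probe, besides Pvt1 and, of each other list, up to 3 called genes a direction with values on all 8 arrays. Of the regulator list, 1 gene is not reported here. The alternatives covered scaling (to the 75th percentile, or by cyclic loess), background (normexp, offset 50), the series table, no or stricter masking, a block for replicate or slide row, a robust prior with a trend, 1 array left out at a time, the methods' t-test, and other probes of a gene. The number of arrays limits the precision. Figures were drawn with matplotlib 3.10.9.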

Additional observations from a re-analysis of the deposited data

Results flagged for a closer look

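The 3′ probe of B2m read 14.21 on silenced array 4, while the other 3 silenced arrays read 14.92 to 14.94, a gap of 0.963 of the group's range, past the critical value of Dixon's test for 4 values. Of 19 groups of 4 values checked, this was the single one past that value, and chance alone gives about 1 in 20. The same array was the dimmest of the series, and without masking of dim spots its B2m value was 14.77.

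The 3′ probe of Tap1, which had too few values on control arrays for the test, read at least 106 in processed signal on every silenced array (lowest, replicate 1), against 11.8 to 31.5 on control arrays. Alb and other liver genes were also above background on silenced arrays alone, and the part of that in the Tap1 signal was not tested.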

How the results depend on the processing

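The change of Pvt1 stayed past the threshold in all 18 alternatives that gave it (-3.12 to -1.99), but could not be fitted in the series table. Psmb10 passed in all 19 alternatives run on probes. No value changed sign while called. Other results moved. The class I genes called numbered 1 as reported, 5 with the shift to the 75th percentile, 4 with cyclic loess, 5 with normexp, 4 in the series table, 5 without masking, and 2 by the methods' t-test without adjustment (1 after Benjamini-Hochberg). Class I probes called numbered 2 as reported, and 5, 5, 7, 6 and 7 under the first 5 of these settings, and 1 with the slide row as a block. All probes called numbered 6642, against 11440 (75th percentile), 10674 (cyclic loess), 10220 (normexp), 3106 (slide row) and 3420 (methods' t-test after Benjamini-Hochberg). Normexp and the fit without masking tested 56600 probes, so these counts are not shares of 1 set of probes. Genes called in the 5 related lists numbered 18, against 31, 29 and 28 with those first 3 scalings, 28 by the unadjusted t-test and 5 with the slide row.

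Leaving out 1 array at a time gave 3708 to 8859 probes, 2 to 4 class I probes, 1 to 3 class I genes and 4 to 22 list genes. The class I genes numbered 3 without silenced replicate 4 (Psmb10, H2-K1, Tap2) and 2 without control replicate 3 (Psmb10, Tap2), while probes numbered 3769 and 3708 without control replicates 2 and 4, and list genes 4 and 5. List genes numbered 10 and 9 without silenced replicates 1 and 3.

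The labels number the cultures 1 to 4 in each group. The deviations of same-numbered arrays correlated at -0.04, 0.19, 0.22 and 0.06 over 25108 probes, and 2 of the 4 control arrays correlated best with their own number, so the numbers were not taken to pair them. With the replicate block, 5017 probes, 2 class I probes and 1 class I gene were called, the change of Pvt1 was -2.86 and list genes called fell to 9. Dim probes limited Tap1, Psmb8 and Psmb9, which lacked signal well above background on control arrays.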
